A study of Mus musculus with 2 samples.

Results

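The 9 genes described here encode coagulation factors that are made in tissue (F3, F5, F7, F10 and F13a1), thrombomodulin (Thbd), and the plasminogen activators with the urokinase receptor (Plat, Plau and Plaur). They were taken by symbol from the deposited expression values of whole omentum, in which all 9 of 9 symbols were found among 24346. The omentum is a sheet of visceral fat that carries milky spots, which are clusters of lymphocytes, macrophages and stromal cells. RNA-seq was performed on 2 libraries from mice injected with diphtheria toxin (DT) and examined 5 days later. One library came from WT and 1 from Postn-DTR mice. The latter were heterozygous for a DT receptor inserted into the first coding exon of Postn and were made in C57BL/6 zygotes, and DT kills the cells that express the inserted receptor. Both groups received DT, and no library from mice without DT was analysed here. The study targeted Aldh1a2+ fibroblastic reticular cells (FRCs) in this way, but the Postn promoter is also used by mesenchymal cells of other tissues. The sources used here give neither the age of the mice nor whether a library held 1 mouse or a pool.

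Coagulation starts when tissue factor (F3), a cell surface receptor, binds factor VII (F7). This pair activates factor X (F10), which together with its cofactor factor V (F5) turns prothrombin into thrombin. Thrombin makes fibrin from fibrinogen, and the A subunit of factor XIII (F13a1) cross-links it. Thrombomodulin on endothelial and mesothelial cells captures thrombin and redirects it towards activating protein C, an anticoagulant. Tissue-type plasminogen activator (Plat) and urokinase (Plau) turn plasminogen into plasmin, which dissolves fibrin, and the urokinase receptor (Plaur) holds urokinase on the cell surface. The omentum is known for sealing injured or infected sites in the abdomen, where fibrin is laid down and removed.

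To show the sequences beside the values, the 250 bases before the RefSeq start site are given for the 4 genes that were at least 2-fold higher in Postn-DTR and, for contrast, for F3, which was not. They are written 5′ to 3′ from GRCm38.p6, and all 5 genes lie on the plus strand. Capitals mark matches to motifs searched on both strands, which were AP-1 (TGANTCA, which reads alike on both strands), KLF (CCACCC) and NF-kB (searched by its usual consensus).
F5, chr1:164151585-164151834: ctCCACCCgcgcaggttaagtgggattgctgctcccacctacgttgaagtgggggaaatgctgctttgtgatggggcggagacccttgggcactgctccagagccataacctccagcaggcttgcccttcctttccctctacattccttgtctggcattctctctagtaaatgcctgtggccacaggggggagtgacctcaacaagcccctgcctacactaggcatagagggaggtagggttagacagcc
F7, chr8:13025784-13026033: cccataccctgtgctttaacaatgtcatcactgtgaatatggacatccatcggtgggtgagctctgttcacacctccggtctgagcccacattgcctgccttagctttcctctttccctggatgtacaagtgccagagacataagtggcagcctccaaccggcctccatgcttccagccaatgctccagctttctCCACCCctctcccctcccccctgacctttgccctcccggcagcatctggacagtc
F10, chr8:13037058-13037307: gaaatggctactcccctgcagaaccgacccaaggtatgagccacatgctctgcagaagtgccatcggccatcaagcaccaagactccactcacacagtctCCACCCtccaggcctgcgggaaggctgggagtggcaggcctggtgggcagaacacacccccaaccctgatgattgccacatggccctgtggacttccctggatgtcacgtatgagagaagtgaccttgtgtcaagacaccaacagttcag
Plaur, chr7:24462233-24462482: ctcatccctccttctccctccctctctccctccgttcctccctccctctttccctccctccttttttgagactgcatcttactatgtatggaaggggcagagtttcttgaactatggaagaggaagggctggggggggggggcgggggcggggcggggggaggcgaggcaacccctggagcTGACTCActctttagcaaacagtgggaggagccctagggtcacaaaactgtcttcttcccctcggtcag
F3, chr3:121723287-121723536: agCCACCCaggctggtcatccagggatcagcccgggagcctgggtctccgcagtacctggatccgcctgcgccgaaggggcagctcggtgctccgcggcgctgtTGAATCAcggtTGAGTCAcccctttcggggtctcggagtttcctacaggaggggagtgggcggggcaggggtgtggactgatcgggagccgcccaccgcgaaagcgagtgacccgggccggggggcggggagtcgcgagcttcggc
Plaur held 1 AP-1 match, at positions -69 to -63 from the start site, and F3 held 2, which began at -146 and -135. Such a match was found in 6.7% of 32851 promoter windows of the same length. F5, F7, F10 and F3 each held 1 KLF match, as did 28.1% of all windows. None of the 5 windows held an NF-kB match, which was found in 3.9% of all windows. The table held promoters for 6 of the 9 genes and had none for Thbd, Plat and Plau. The motif matches did not separate the genes that were higher from F3.

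Expression was given as FPKM (fragments per kilobase of transcript, scaled to all mapped fragments), a unit per length in which levels of different genes can be compared. All values together gave an FPKM of 542190 for WT and 671882 for Postn-DTR. The smallest values pointed to similar depths, near 23300000 fragments (WT) and 24100000 fragments (Postn-DTR), if no further scaling between libraries was applied. Postn, the targeted gene, was 3.61-fold lower, at 58.3 (WT) and 16.2 (Postn-DTR). Fat and mesothelial markers were abundant in both libraries, as the tissue label requires (Adipoq at 955.2 and 635.9, Upk3b at 211.6 and 181.9). The libraries differed widely in pancreatic acinar genes, whose summed FPKM was 12320 in WT and 20.4 in Postn-DTR. With 1 library per genotype there was no spread between replicates and no test, and every difference below compares these 2 libraries only. Changes are differences of log2(FPKM + 1) from WT to Postn-DTR. They understate the change of weakly expressed genes and were called at 2-fold. The 13127 genes that averaged an FPKM of 1 or more over both libraries were compared. In whole tissue, fewer cells of a type and less RNA per cell cannot be told apart.

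All 9 genes passed the expression minimum. Of these, 4 were at least 2-fold higher in Postn-DTR, where 3.88% of all genes compared were, and 0 were at least 2-fold lower, where 3.12% of all genes were. The 4 were F10, F7, F5 and Plaur, which are 3 factors of the pathway from tissue factor to thrombin and the urokinase receptor. The other 5 stayed within 2-fold, F13a1 and Plat on the higher side and F3, Thbd and Plau on the lower side. The median change of the 9 genes was 0.42, beside 0.018 over all genes compared.

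**Figure D1:**
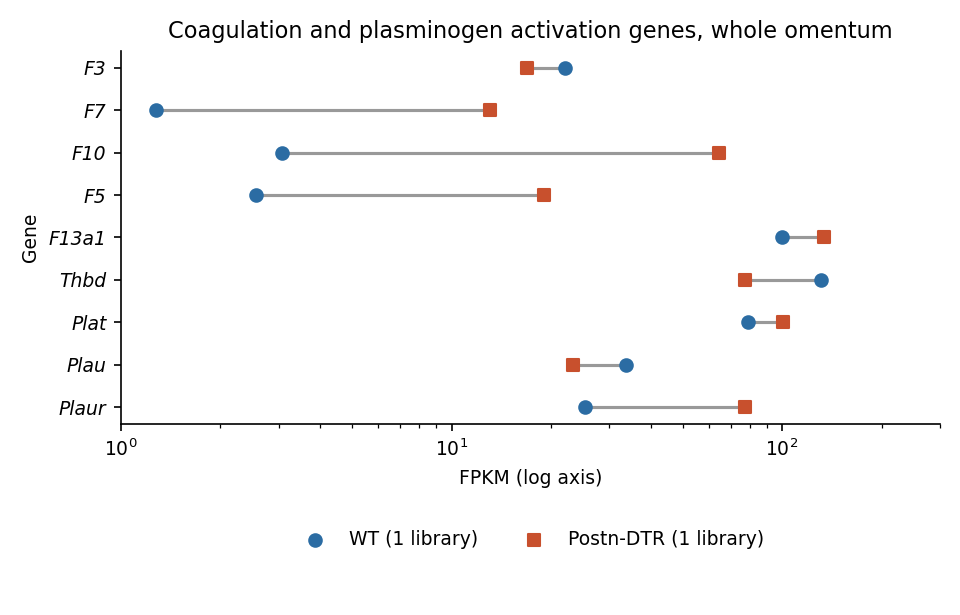
FPKM (log axis) of the 9 genes in the WT library (circles) and the Postn-DTR library (squares), 1 library each, joined by a line for each gene. F7, F10 and F5 lie between 1.27 and 3.08 in WT and between 13.1 and 64.5 in Postn-DTR, while the lines of F3, F13a1, Thbd, Plat and Plau are short.

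The genes of the initiation step moved apart. F3 (ENSMUSG00000028128, chr3:121723537-121735048, plus strand, 6 exons, GRCm38) stood at an FPKM of 22.1 (WT) and 17.0 (Postn-DTR). The receptor transcript was thus 1.30-fold lower, a change of -0.36. F7 (ENSMUSG00000031443, chr8:13026034-13035809, plus strand, 8 exons), its protease ligand, stood at 1.27 in the WT and 13.1 in the Postn-DTR library. This was 10.3-fold higher, with a change of 2.63. It ranked 69 by increase among all genes compared. The WT value rested on about 49 reads and the Postn-DTR value on about 523. For counting error only, the 95% interval of the fold (exact Clopper-Pearson, on estimated reads) reached from 7.69 to 14.1. The receptor transcript exceeded that of its ligand in both libraries, but the F7 to F3 ratio of FPKM went from 0.0576 in WT to 0.772 in Postn-DTR.

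Factor X and its cofactor were both higher. F10 (ENSMUSG00000031444, chr8:13037308-13056676, plus strand, 9 exons), the protease that cleaves prothrombin, was at an FPKM of 3.08 (WT) and 64.5 (Postn-DTR). It was 20.9-fold higher, with a counting interval of 17.9 to 24.6. Its change of 4.00 was the largest of the 9 genes and ranked 16 of 13127. Its level exceeded 16.3% of all genes compared in WT and 88.9% in Postn-DTR. F5 (ENSMUSG00000026579, chr1:164151838-164220277, plus strand, 25 exons) was measured at an FPKM of 2.56 (WT) and 19.0 (Postn-DTR). It was 7.42-fold higher (counting interval 6.71 to 8.22), a change of 2.49 that ranked 77. The F10 level was thus 1.20 times that of F5 in WT and 3.39 times that of F5 in Postn-DTR.

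F7 and F10 are neighbours on chromosome 8, in the same direction and 1498 bases apart. The genes around them did not share the difference. Mcf2l, on the other side of F7, was at 7.63 (WT) and 6.87 (Postn-DTR). Proz, which encodes protein Z, a cofactor for an inhibitor of factor X, follows F10 and was at 1.02 and 0.680, under the expression minimum. Pcid2 (11.2 and 12.1) and Cul4a (25.0 and 25.4), further along, were close to each other in the libraries. Whether transcripts of F7 run on into F10 was not tested. The neighbour before F5 is Selp, which encodes P-selectin, an adhesion receptor of platelets and endothelial cells, and lies 1811 bases away. The change of Selp was 2.25, from 8.55 (WT) to 44.3 (Postn-DTR). Of the 12 genes next to the 9 that passed the expression minimum, 2 were changed at least 2-fold, Selp and Sstr4. Of all genes compared, 3.88% were at least 2-fold higher and 3.12% lower. Sstr4, next to Thbd, was lower, at 3.65 (WT) and 1.08 (Postn-DTR).

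F13a1 (ENSMUSG00000039109, chr13:36867178-37050244, minus strand, 15 exons) was abundant in both libraries, at an FPKM of 100.2 (WT) and 133.9 (Postn-DTR). Its ratio of 1.34 and change of 0.42 stayed within 2-fold. With the acinar genes left out and the library totals equalised, its change was 0.076. It was the second most abundant of the 9 genes in WT and the most abundant in Postn-DTR.

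Thbd (ENSMUSG00000074743, chr2:148404466-148408188, minus strand, 1 exon) was the most abundant of the 9 in WT. Its FPKM was 131.6 (WT) and 77.5 (Postn-DTR), a change of -0.76 or 1.70-fold. Of all genes compared, 5.42% had a more negative change. It was the only one of the 9 whose call depended on scaling, since its change was -1.10 at equal totals without the acinar genes, past 2-fold. Pecam1, an endothelial marker, was at 109.0 and 109.5, so the Thbd to Pecam1 ratio went from 1.21 to 0.707. Procr, the receptor that presents protein C to thrombin and thrombomodulin, was at 23.5 and 26.5. The endothelial list had 0 of 7 genes past 2-fold, 3 higher and 4 lower, with a median change of -0.13. Kdr, which had the largest decrease of the 7, was at 22.4 and 13.6. It was 1.65-fold lower, near the 1.70-fold of Thbd, so the Thbd ratio depended on the endothelial marker taken. Of 5 mesothelial markers, 1 was at least 2-fold lower and 0 higher, with a median of 0.27.

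The plasminogen activators and the receptor differed in direction. Plat (ENSMUSG00000031538, chr8:22757727-22782844, plus strand, 14 exons) changed by 0.35, from an FPKM of 78.9 (WT) to 100.7 (Postn-DTR). At equal totals without the acinar genes the change was 0.010. Plau (ENSMUSG00000021822, chr14:20836660-20843385, plus strand, 11 exons) was 1.45-fold lower in Postn-DTR, at an FPKM of 33.7 (WT) and 23.3, with a change of -0.52. Plaur (ENSMUSG00000046223, chr7:24462484-24475968, plus strand, 7 exons) was at 25.3 (WT) and 77.0 (Postn-DTR). The receptor was 3.04-fold higher (counting interval 2.80 to 3.30), a change of 1.57 that ranked 204. Urokinase exceeded its receptor in WT and the receptor exceeded urokinase in Postn-DTR, with a Plaur to Plau ratio of 0.750 and 3.31. The Plat to Plau ratio was 2.34 in WT and 4.33 in Postn-DTR.

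**Figure D2:**
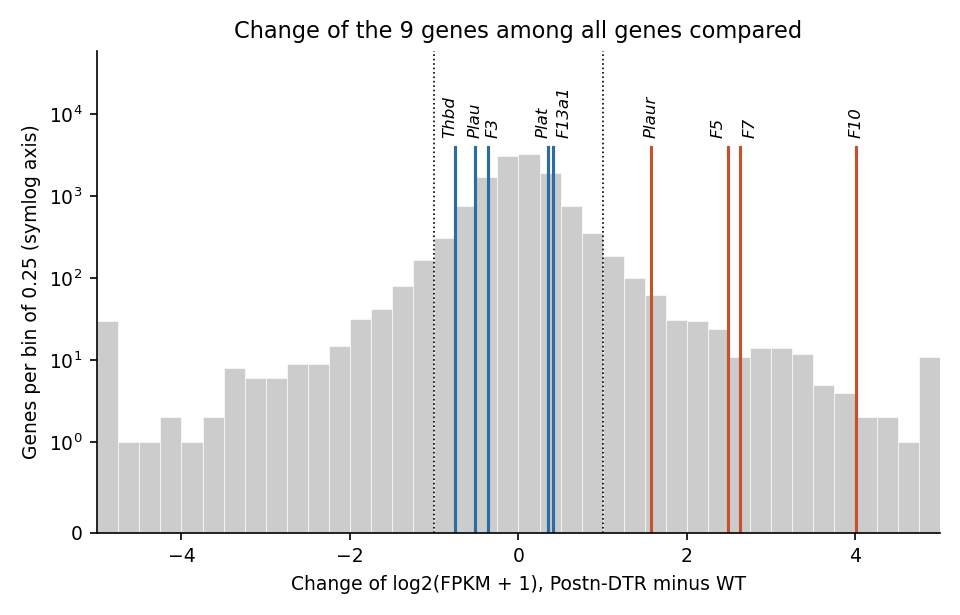
Number of genes (symlog axis) in each bin of 0.25 of the change of log2(FPKM + 1) from WT to Postn-DTR, over all 13127 genes compared, with the outermost bins holding all genes beyond them. Lines mark the 9 genes and dotted lines a 2-fold change. Plaur (1.57), F5 (2.49), F7 (2.63) and F10 (4.00) lie to the right of it and no line lies to the left.

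The order of the levels also differed between the libraries. In WT the order from high to low was Thbd, F13a1, Plat, Plau, Plaur, F3, F10, F5 and F7, and the highest was 103.5 times the lowest. In Postn-DTR it was F13a1, Plat, Thbd, Plaur, F10, Plau, F5, F3 and F7, and the highest was 10.2 times the lowest. F10 moved from rank 7 to rank 5, past F3 and Plau. Thbd and Plaur, at 77.5 and 77.0, were nearly level in Postn-DTR. Without replicates it could not be said which neighbours in these orders differ beyond the spread between mice.

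The remaining genes of the pathway were described from 4 lists with 47 genes, of which 26 passed the expression minimum. Of these, 5 (19.2%) were at least 2-fold higher and 2 (7.69%) at least 2-fold lower, and 19 stayed within 2-fold. Of all genes compared, 3.88% were higher and 3.12% lower by this measure. The median change of the 26 was 0.13, beside 0.018 over all genes compared. The 21 genes under the minimum held most of the factors that the liver makes for plasma. Prothrombin (F2) was at 0.117 in WT and listed at 0 in Postn-DTR, and plasminogen (Plg), the substrate of both activators, was listed at 0 in both. The hepatocyte marker Ttr (0.084 and 0) was near 0 as well, and Alb (2.17 and 1.22) was low but passed the minimum. Of the 6 hepatocyte markers 4 were under the minimum, among them Apoa1, the one of these that was higher in Postn-DTR (0.055 and 0.422). The abundant one was Cyp2e1 (681.6 and 1205), which fat tissue also expresses.

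Among other procoagulant genes, 1 of 6 was at least 2-fold higher and 0 were lower. This was Fgg, the gamma chain of fibrinogen, listed at 0 in WT and at 4.21 in Postn-DTR. The other chains were under the minimum, Fga at 0 and 1.61, and Fgb listed at 0 in both. Vwf, which carries factor VIII and binds platelets, was at 23.9 and 32.3. Ggcx, the carboxylase that factors VII and X need, was at 16.3 and 9.29, a change of -0.75. Of 5 anticoagulant genes 0 were changed 2-fold, and Tfpi, the inhibitor of the tissue factor pathway, was at 17.5 and 17.2.

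Among 5 genes for the binding of plasminogen and for inhibitors, 1 was at least 2-fold higher and 1 lower. Serpinb2, which encodes PAI-2, an inhibitor of urokinase, was at an FPKM of 2.72 (WT) and 30.2 (Postn-DTR). It was 11.1-fold higher, with a change of 3.07 that ranked 49. Serpine2, which encodes protease nexin-1, an inhibitor of thrombin and urokinase, went the other way, at 28.9 and 12.5. The receptors for plasminogen were near level, with S100a10 at 473.5 and 476.6.

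Of 10 protease-activated receptors and partners of the urokinase receptor, 3 were at least 2-fold higher and 1 lower. Itgam (46.8 and 251.9) and Itgb2 (96.5 and 285.9) encode the integrin Mac-1, which binds the urokinase receptor and fibrinogen and is carried by myeloid cells. Lrp1, which clears activator and inhibitor complexes, was at 87.9 and 186.8. Its change of 1.08 was under 2-fold once both libraries were set to the same 75th percentile or the same total. Vtn, which encodes vitronectin, a ligand of the urokinase receptor, was 16.8-fold lower, at 9.48 (WT) and 0.565 (Postn-DTR). Of the 6 smooth muscle and pericyte markers, 3 were higher and 3 lower in Postn-DTR, and Rgs5 (30.6 and 2.56) was the one past 2-fold. Cnn1 (2.31 and 5.58) had the largest increase, a change of 0.99. The part of these cells in the Vtn difference was not tested. The thrombin receptor F2r was at 6.62 and 7.08. F2rl3, another protease-activated receptor, was at 1.65 and 0.612. Its change was -0.72, and it was past 2-fold with a pseudocount of 0.1.

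**Figure D3:**
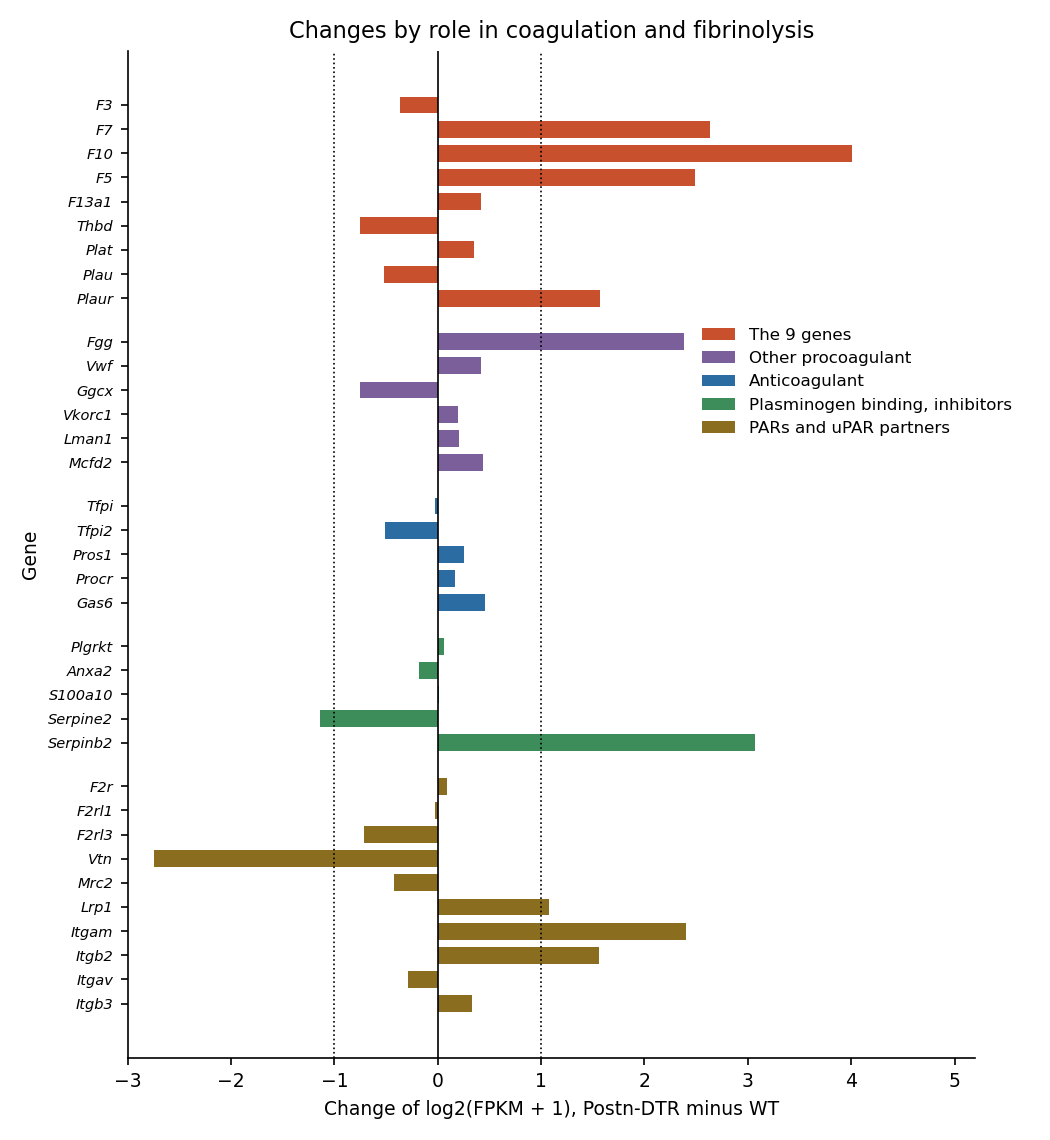
Change of log2(FPKM + 1) from WT to Postn-DTR, for the 9 genes and the 26 other pathway genes that passed the expression minimum, coloured by role, with dotted lines at a 2-fold change (PAR, protease-activated receptor; uPAR, urokinase receptor). F10 (4.00) and Serpinb2 (3.07) have the longest bars to the right and Vtn (-2.74) the longest to the left.

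Several of these genes are known from macrophages, F5 and F10 from those of the peritoneum among them, so marker lists of cell types were set beside them. Their part in the differences was not tested, and whole tissue does not show which cells the marker transcripts came from. All 7 macrophage markers were higher in Postn-DTR, 2 of them at least 2-fold, with a median change of 0.82. Their summed FPKM was 3524 (WT) and 5619 (Postn-DTR). The study counted cells of the omentum 5 days after DT. It reported an unaltered number of macrophages and fewer leukocytes in total. Cell numbers and shares of whole-tissue RNA are unlike measures. All 7 markers of large peritoneal macrophages were higher, 3 at least 2-fold, with sums of 431.3 and 1419. Prg4 (38.0 and 545.0) and Alox15 (33.1 and 317.0) made up most of the rise of these sums. The rise of others was smaller, with Gata6 at 18.6 and 33.1 and Timd4 at 29.6 and 39.2. The Lyve1+ tissue macrophage list had 1 of 5 genes at least 2-fold higher and sums of 571.3 and 645.0. Of 7 neutrophil markers 3 were at least 2-fold higher and 2 lower (median change 0.99, sums 427.4 and 702.7). Of 5 monocyte markers 2 were at least 2-fold higher and 1 lower (median change 0.86, sums 566.8 and 1180). Fn1 made up most of the monocyte sums, at 459.1 and 836.8, and the lower gene was Ccr2, at 39.6 and 16.4. The 5 mast cell markers were all higher, 3 of them at least 2-fold, with a median change of 2.19 and sums of 63.5 and 264.1. Of 7 platelet markers 3 passed the minimum and 0 were past 2-fold, but all 3 were higher, with sums over the list of 150.3 and 286.6. Pf4, which macrophages can also express, made up most of these sums, at 146.9 and 280.5. Fibroblast markers had a median of -0.13, with 1 of 6 at least 2-fold lower, and smooth muscle and pericyte markers had a median of -0.23, with 1 of 6 lower. The 5 adipocyte markers were all within 2-fold. Erythrocyte genes were at least 2-fold higher in 3 of 3 compared, with sums of 274.8 and 838.5. Hba-a1 made up most of these sums, at 269.8 and 790.7, while Hbb-bs was listed at 0.0024 in WT and 33.9 in Postn-DTR. Of the 2 under the minimum, Slc4a1 was lower (0.148 and 0.038) and Hba-a2 level (0.019 in both).

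**Figure D4:**
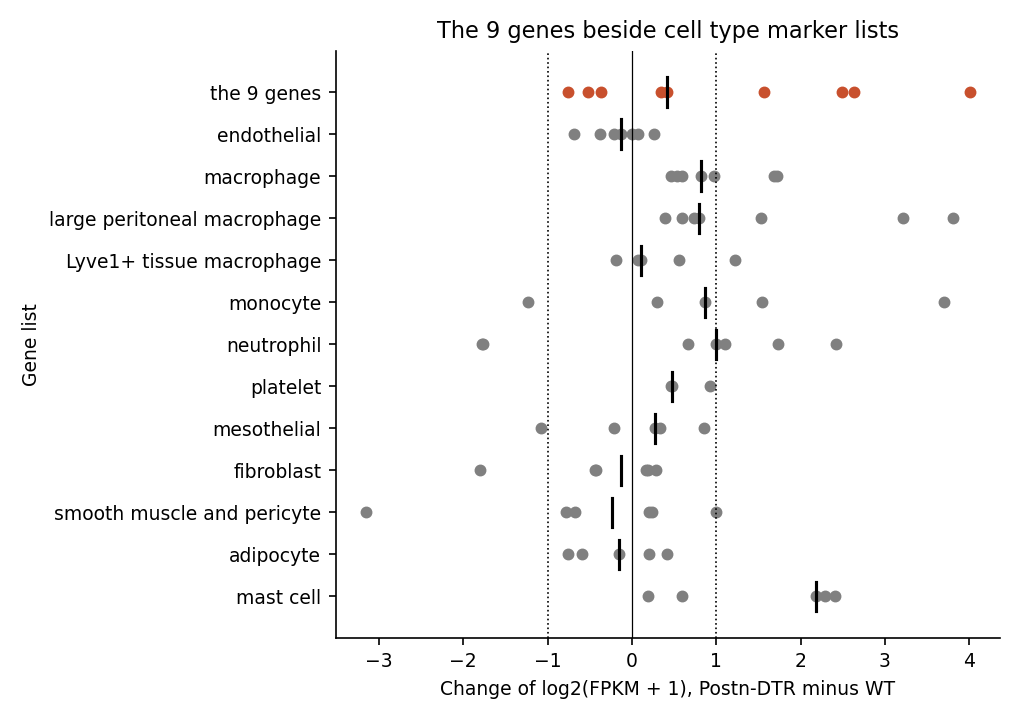
Change of log2(FPKM + 1) from WT to Postn-DTR, of each gene past the expression minimum in the set of 9 and in 12 cell type marker lists; each point is a gene, the black bar is the median and dotted lines mark a 2-fold change. The macrophage, large peritoneal macrophage, mast cell and platelet lists have all points to the right of 0. Their medians are 0.82, 0.80, 2.19 and 0.47. The neutrophil and monocyte lists have points on both sides, with medians of 0.99 and 0.86. The endothelial, platelet and adipocyte lists stay within 2-fold.

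Ratios to a macrophage marker within a library do not depend on scaling, but in whole tissue they are not levels per macrophage. Adgre1, which encodes F4/80, was at 41.1 (WT) and 137.6 (Postn-DTR). Relative to it, F10 went from 0.0749 to 0.468, F7 from 0.0309 to 0.0952 and F5 from 0.0624 to 0.138. Per Adgre1, these 3 genes were higher in Postn-DTR by 6.26-fold, 3.08-fold and 2.22-fold. The direction depended on the marker for F7 and F5. Over all 14 genes of the macrophage and large peritoneal macrophage lists, the F10 ratio was higher in Postn-DTR for 14, the F7 ratio for 13 and the F5 ratio for 12. The exceptions were Prg4, per which F7 was 0.719 and F5 0.518 times its WT ratio, and Alox15, per which F5 was at 0.776 times. The F10 ratio was 1.46-fold higher per Prg4 and 2.19-fold higher per Alox15, and 15.8-fold higher per Timd4. Plaur was at 0.615 and 0.560 of Adgre1, so its ratio was nearly the same in both libraries, and over the 14 markers it was higher in Postn-DTR for 9 and lower for 5. F13a1 was 2.44 times Adgre1 in WT and 0.973 times Adgre1 in Postn-DTR. The size of this fall depended on the marker, since F13a1 per Csf1r was nearly the same, at 0.633 (WT) and 0.611 (Postn-DTR). Over the 14 markers the F13a1 ratio was lower in Postn-DTR for 13, and 1.01-fold higher per Timd4. The gene pairs were chosen after their values were seen.

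**Figure D5:**
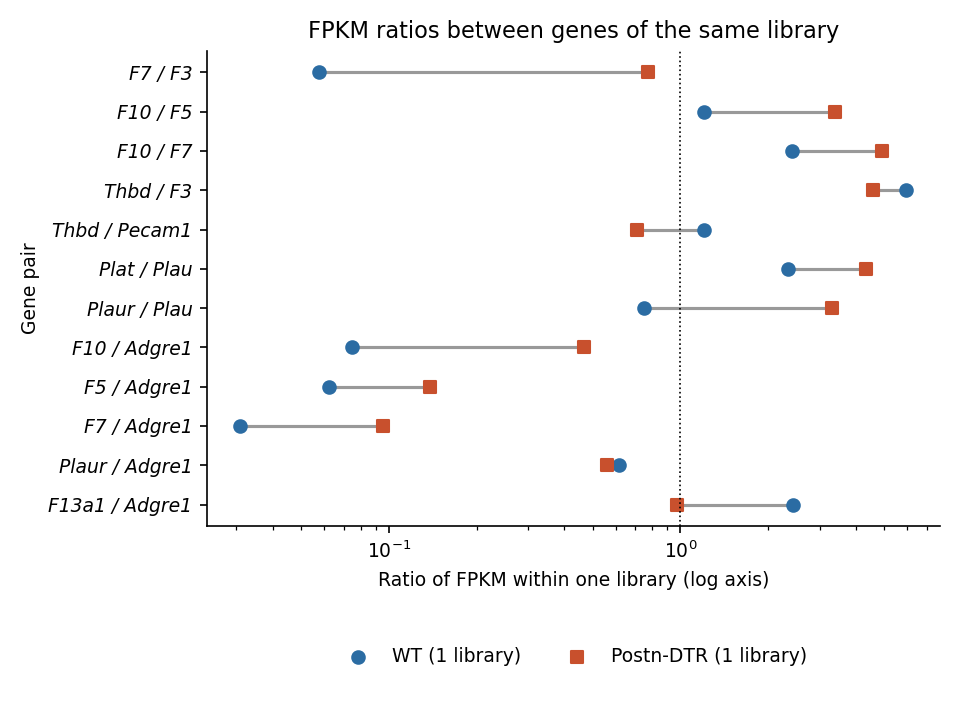
Ratio of the FPKM of 2 genes within the WT library (circles) and within the Postn-DTR library (squares), on a log axis, with a dotted line where both genes are equal. The ratio of Plaur to Plau crosses this line (0.750 and 3.31), as do Thbd to Pecam1 and F13a1 to Adgre1 in the other direction, while Plaur to Adgre1 barely differs.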

How the data were processed

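Total RNA of whole omenta was extracted with a miRNeasy kit and made into stranded mRNA libraries (TruSeq), per the labels. The authors deposited FPKM, with 1 value per gene symbol and library. The submitters' processing notes name TopHat2 2.1.1, Bowtie2 2.2.8, SAMtools 0.1.18, Cuffdiff 2.2.1 and the build mm10, with no order. The annotation is not given in the sources used here. Positions and exon numbers were taken from GENCODE M21 (GRCm38, the same assembly), which held 23310 symbols (95.7%), and promoters from RefSeq (GRCm38.p6).

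Groups came from the genotype labels. Changes were differences of log2(FPKM + 1), called at 2-fold with a mean FPKM of at least 1. Fold values are ratios of FPKM. The value of 1 read was 0.967 times as large in Postn-DTR as in WT, from 174 of 723 genes under 0.1 FPKM. Depth was then fitted so that low values of single-transcript genes became whole reads (78.9% in WT and 78.8% in Postn-DTR, within 0.1), with lengths reduced by 204 bases. Estimated reads are approximate, and intervals cover counting error only. The depth fit and the change were tested on simulated data. The 9 genes and all lists were chosen with earlier results of these data known. By the rule for naming, all 9 genes, pathway genes changed at least 2-fold and Plg, F2, Serpinb2, Tfpi, Procr and Vwf were named, except 1 gene that is left out of the lists and not reported here; other genes are examples from the lists or neighbours by position. Marker lists numbered 16, of which the housekeeping list had a median change of 0.19. Python 3.11.15, pandas 2.3.3, numpy 2.4.6, scipy 1.17.1 and matplotlib 3.10.9 were used.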

Additional observations from a re-analysis of the deposited data

How the results depend on the processing

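No paired analysis was possible because there was 1 library per genotype, and for the same reason no library could be left out. The number of the 9 genes at least 2-fold higher was 4, or 3 with a mean FPKM of at least 10, which left out F7, and at a 3-fold threshold, which left out Plaur. The number at least 2-fold lower was 0, and 1 (Thbd) at a 1.5-fold threshold and with acinar genes left out and library totals equalised. The latter shifted the median over all genes by -0.30, the share of higher genes among all those changed from 55.4% to 28.6%, and the median change of the 9 genes from 0.42 to 0.076. Leaving out the acinar genes and equalising the totals were not run apart. The acinar genes held 12320 of the summed FPKM of 542190 in WT, where the Postn-DTR sum was 671882. At equal 75th percentiles the median change of the 9 genes was 0.31. Each of the 9 genes kept its direction under 5 alternatives of pseudocount and scaling, but a change of pseudocount cannot alter a direction. The smallest changes of Plat and F13a1, at equal totals without the acinar genes, were 0.010 and 0.076, hardly a direction. The change of F10 ranged from 3.10 to 4.34, of F7 from 1.53 to 3.27 and of F5 from 1.67 to 2.84, with the lowest value at a pseudocount of 5. Of the 7 changed pathway genes 4 were past 3-fold, 3 of them higher. The 2 lower ones were 1 with a pseudocount of 5, with a mean FPKM of at least 10 or at 3-fold, and 4 at 1.5-fold. They were 3 with a pseudocount of 0.1, which added F2rl3. They were also 3 with acinar genes left out and totals equalised, which added Ggcx. Of the 5 higher ones, Fgg was not called with a pseudocount of 5 or a mean FPKM of at least 10. The low WT levels of F7, F10 and F5 limit the precision of their folds.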
